A study of Mus musculus with 128 samples.

Results

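The 208 transcripts described here carry the names of bacterial artificial chromosome clones (RP23 or RP24 and a suffix) in place of gene symbols, and in wildtype embryos they were read mainly at the 2-cell stage. They were chosen from 10981 clone-named transcripts outside chromosomes 4, 14, X and Y, out of 41300 annotated genes. A member had a wildtype mean of at least 10 CPM (the count as a share of the library total, on the usual scale) at 2-cell, and at most 0.25 of that mean both in MII oocytes and at 4-cell. The wildtype libraries at MII, 2-cell and 4-cell therefore chose the members, and their stage course is a description. The knockout libraries and the 8-cell stage took no part in the choice.

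Single C57BL/6 mouse MII oocytes and single embryos at 2-cell (1.5 days post fertilization), 4-cell (2.5 days) and 8-cell (3.5 days) were sequenced, with 16 libraries for each stage and genotype. Wildtype means oocytes with a maternal Kdm4a copy (m+/p-), and knockout means oocytes without one (m-/p-). Sperm from Kdm4a knockout males fertilised both, so every embryo lacked the paternal copy and a wildtype embryo carried only the maternal one. Kdm4a encodes a demethylase of histone H3 lysine 9 and lysine 36 methylation. Embryos were sampled by the progress of control embryos, their zona was removed with acid, and the mothers are not named. The p-values therefore measure the spread between these single embryos, several of which may share a mother.

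In the mouse, the first large wave of transcription from the embryonic genome comes at the 2-cell stage, when much of the stored oocyte RNA is being degraded. This wave includes genes and retroviral promoters that are active for about a cell cycle and then silenced, among them tandem gene clusters such as Zscan4, Tdpoz, Tcstv and copies of Eif1a. Many such transcripts are multicopy or lie in repeats, which is one reason why some were annotated only by clone name.

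The members matched GENCODE M21 genes, 193 exactly and 15 by overlap. Long intergenic RNAs made up 78 of them, protein-coding models 64, antisense RNAs 27, unclassified transcripts (type TEC, to be experimentally tested) 20, processed transcripts 16 and sense intronic RNAs 3. They lay at 184 loci (members within 50 kb of each other counted as one locus), with 29 members on chromosome 12, 28 each on chromosomes 13 and 7, and 24 on chromosome 5. A gene ran on the opposite strand of 61 members, a coding gene in 38 cases. Whether the counting used strand was not stated, so those levels cannot be told apart from the partner gene's.

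A stretch of 31 bases near the 5′ end was shared by members on several chromosomes. It stood in the first 150 transcript bases of 25 of the 208 members (12%), on 8 chromosomes, against 71 of 55450 genes in GENCODE M21 (0.128%). Of 259 symbol-named genes that met the same numeric rule and matched an M21 symbol, 2 held it (0.772%). The stretch was picked because members shared it, so these shares are a description. Of the 25, 8 belong to a family of related transcripts (dispersed family B, described below), 2 to the Tcstv family and 15 to no family. The first exon starts of 6 noncoding members on 6 chromosomes are shown because they place the same stretch, in capitals, in transcripts with different bodies. They come from GENCODE M21 transcripts (mm10), 5′ to 3′ on the transcript strand. The length of 31 bases was set for the search, and the printed bases on both sides of the capitals are also largely alike.
Gm48754 (RP24-140A15.3), chr13:17932386-17932475, plus strand: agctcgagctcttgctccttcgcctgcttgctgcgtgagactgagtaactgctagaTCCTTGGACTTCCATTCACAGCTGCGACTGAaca
Gm28940 (RP23-430H22.3), chr1:82402657-82402746, minus strand: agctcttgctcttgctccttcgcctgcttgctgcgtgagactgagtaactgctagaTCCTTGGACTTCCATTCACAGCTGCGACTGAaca
Gm45659 (RP23-231A8.1), chr8:43914515-43914604, minus strand: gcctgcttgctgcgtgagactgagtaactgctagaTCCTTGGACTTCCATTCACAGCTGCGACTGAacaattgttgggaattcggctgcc
Gm43049 (RP23-205G9.1), chr3:140760615-140760704, minus strand: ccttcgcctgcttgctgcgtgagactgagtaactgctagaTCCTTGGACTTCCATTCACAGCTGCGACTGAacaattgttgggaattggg
Gm35974 (RP24-194G16.1), chr16:3468460-3468549, plus strand: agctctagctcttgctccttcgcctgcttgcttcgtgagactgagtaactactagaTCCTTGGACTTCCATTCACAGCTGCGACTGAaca
Gm48578 (RP24-100L8.1), chr12:47532257-47532346, plus strand: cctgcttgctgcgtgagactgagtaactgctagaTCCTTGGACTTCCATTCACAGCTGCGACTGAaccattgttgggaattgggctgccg

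RefSeq promoter windows (GRCm38.p6, 250 bases before to 50 after a start) matched 77 members by symbol. The letters GGATTA on either strand, the core that Otx and Obox homeodomain proteins bind, stood in a window of 20 of those 77 members (26%). The share was 8.14% of 27025 genes with a window, and 12% of 183 symbol-named genes that met the numeric rule. By family, the letters were in 3 of 3 Tcstv-related, 3 of 5 Eif1a-related and 5 of 9 chromosome 7 array windows, in 0 of 5 Speer4-related windows, and in 9 of 55 windows of members without a family. A loose form of the site of Dux, a transcription factor of the 2-cell stage, was also searched. It was in 0 of 77 member windows, in 0.244% of all genes and in 2.19% of the symbol-named genes. A match describes letters and no binding was measured. The 250 bases before the start are shown for a member of each of 2 families that were lower in knockout 2-cell embryos, with GGATTA or its reverse complement in capitals.
BB287469, chr12:87816327-87816576, plus strand: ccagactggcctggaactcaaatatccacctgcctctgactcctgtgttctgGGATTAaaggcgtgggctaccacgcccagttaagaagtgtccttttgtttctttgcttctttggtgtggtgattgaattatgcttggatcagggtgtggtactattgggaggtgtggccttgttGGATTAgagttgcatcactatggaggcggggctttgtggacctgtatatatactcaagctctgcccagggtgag
AF067061 (RP24-218K1.1), chr13:120262845-120263094, plus strand: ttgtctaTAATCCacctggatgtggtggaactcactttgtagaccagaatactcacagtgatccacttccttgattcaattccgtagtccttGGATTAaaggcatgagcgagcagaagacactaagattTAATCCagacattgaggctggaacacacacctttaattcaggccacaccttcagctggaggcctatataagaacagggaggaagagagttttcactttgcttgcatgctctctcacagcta

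Shared 31-base words grouped 77 members into families, after their values were seen. The families were 15 copies related to Eif1a (a translation initiation factor) on chromosome 12, 11 members of an array on chromosome 7, 7 related to Tcstv, 7 to Speer4 and 5 to D5Ertd577e and BC061212. Further families had 4 members related to Cdc5l (a splicing factor), 3 to Tdpoz (TRAF- and BTB-domain proteins), 2 to Zscan4 and 2 to Eif4a3. A dispersed family A of 11 noncoding transcripts, 9 of them of type TEC, and a dispersed family B of 10 noncoding transcripts had no named relative, and 131 members fell in no family. Of the members' values above 0, 59.1% were not whole numbers, against 30.6% over all genes, and 58 members had fewer than 10% whole values. Reads were thus divided between features, and the levels of near-identical copies within a family are uncertain one by one.

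Libraries held 527283 to 4656270 counts (median 2128450) once 1 knockout 8-cell library (replicate 4, about 404 counts) was left out. Kdm4a checked the labels: MII oocytes had a mean of 10.9 CPM (wildtype) and 1.28 CPM (knockout), and 2-cell embryos 15.1 and 2.65 CPM. The log2 fold changes were -3.0 (SE 0.24, edgeR adjusted p = 5.6e-11) and -2.41 (SE 0.30, edgeR adjusted p = 3.4e-07). At 4-cell and 8-cell Kdm4a was too low in both genotypes to be tested. Oocyte markers (8 of 8 measured) summed to 10231, 11665 and 13557 CPM (lowest, median, highest) in wildtype and 3010, 15123 and 17360 CPM in knockout MII oocytes, and cumulus and granulosa markers to at most 121 CPM in any MII library, with Amh, Inha, Ptx3 and Tnfaip6 at 0. Sperm markers summed to at most 7.39 CPM in any library.

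In all, 3 libraries stood apart in the members' summed level, and their values are given with and without them below. Wildtype 4-cell replicate 11 held 8794 CPM in the members, while the next wildtype 4-cell library held 1655 CPM. Knockout 8-cell replicate 7 held 3437 CPM against a next value of 1306 CPM. It also had 3088 CPM of oocyte markers, against at most 134 CPM in the remaining 8-cell libraries, and 41.4 CPM of 2-cell genes, against a knockout median of 5203 CPM. These contents go against its stage label. Knockout MII replicate 15 held 2905 CPM against a next value of 1320 CPM, and its oocyte markers were the lowest of the MII libraries, at 3010 CPM.

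In the wildtype course that defined them, the 208 members together made up a median of 0.126% of counts in MII oocytes, 1.68% at 2-cell, 0.0569% at 4-cell and 0.0382% at 8-cell. Member means at 2-cell ran from 10.04 CPM (RP23-92N3.2) to 1086 CPM (RP23-281H4.3), with a median of 32.2 CPM. Per kilobase of exon, RP24-445L16.3 (2500002B13Rik), singled out after its values were seen, had the highest wildtype 2-cell level, at 1044 CPM per kb. Single embryos differed widely: the sum was 11702, 16842 and 25570 CPM as lowest, median and highest over 16 wildtype 2-cell embryos. Most of that spread lay in the 106 members with a wildtype MII mean under 1 CPM. Their sum ran from 2866 to 13823 CPM (median 7450), whereas the other 102 members ran from 8136 to 11748 CPM (median 9810). A library is a whole embryo and CPM is relative, so less of a transcript and more of the remaining RNA cannot be told apart.

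The members at the edges of the rule show how far its limits decide membership. On the 2-cell level, RP23-92N3.2, RP24-459P6.1 and 3830408C21Rik were just inside at 10.04, 11.2 and 11.4 CPM. Just outside were a clone-named transcript at 9.93 CPM, RP23-155A10.1 at 9.90 CPM and RP23-241O13.3 at 9.85 CPM. The MII mean as a share of 2-cell was 24.8%, 24.2% and 24.1% for RP24-250M7.4, RP23-281H4.3 and RP23-380H19.4 inside, and 25.03%, 26.1% and 26.1% for RP23-8N10.2, RP23-246L11.1 and RP24-316K19.3 outside. The 4-cell mean as a share of 2-cell was 24.96%, 24.5% and 24.4% for RP24-211K19.7, RP23-145O23.1 and RP23-32A8.11 inside. It was 25.4%, 26.4% and 28.1% for RP23-465O13.4, RP23-232B20.6 and RP23-188K3.4 outside.

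Knockout embryos went through the same rise and fall. From MII to 2-cell, 205 of 208 members rose in knockout libraries (edgeR adjusted p under 0.05 and a log2 change of at least 1), none fell, and of 10222 genes tested 30.2% rose and 19.2% fell. The median knockout log2 change was 4.52. From 2-cell to 4-cell, 203 of 208 fell and none rose, where 41.9% of 10748 genes fell and 33.2% rose. The median log2 change there was -4.31. Both changes were called for 201 members. In knockout means, 140 members met the whole numeric rule, 159 reached 10 CPM at 2-cell, 10 exceeded 0.25 of the 2-cell mean at MII and 28 did so at 4-cell. Of the 40 members that could be tested from 4-cell to 8-cell in knockout, 6 fell (background 3.85%) and 2 rose (background 7.66%). Which members passed the filter on low counts rests on the group in which they were high, so these counts are a description.

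Whether these steps differed between genotypes was tested as an interaction (edgeR, adjusted p under 0.05). The wildtype side of the first 2 steps is what chose the members, and choosing a steep wildtype change can by itself shift the interaction, so these counts are a description. From MII to 2-cell the interaction was positive for 1 member and negative for 3, where 1.87% of genes were positive and 2.2% negative. From 2-cell to 4-cell it was positive for 29 of 208 members and negative for 4, where 11.5% and 4.13% of genes were. All these shares are near or below those of all genes, and nothing about the members is read from them. From 4-cell to 8-cell it was positive for 5 of 40 tested members and negative for none, where 1.68% and 0.579% of genes were. Which members were tested rests on the group in which they were high, so this count is a description too. None of these 5 passed without the libraries that stood apart, with the replicate block, or with replicates 1 to 8 or 9 to 16 alone.

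**Figure D1:**
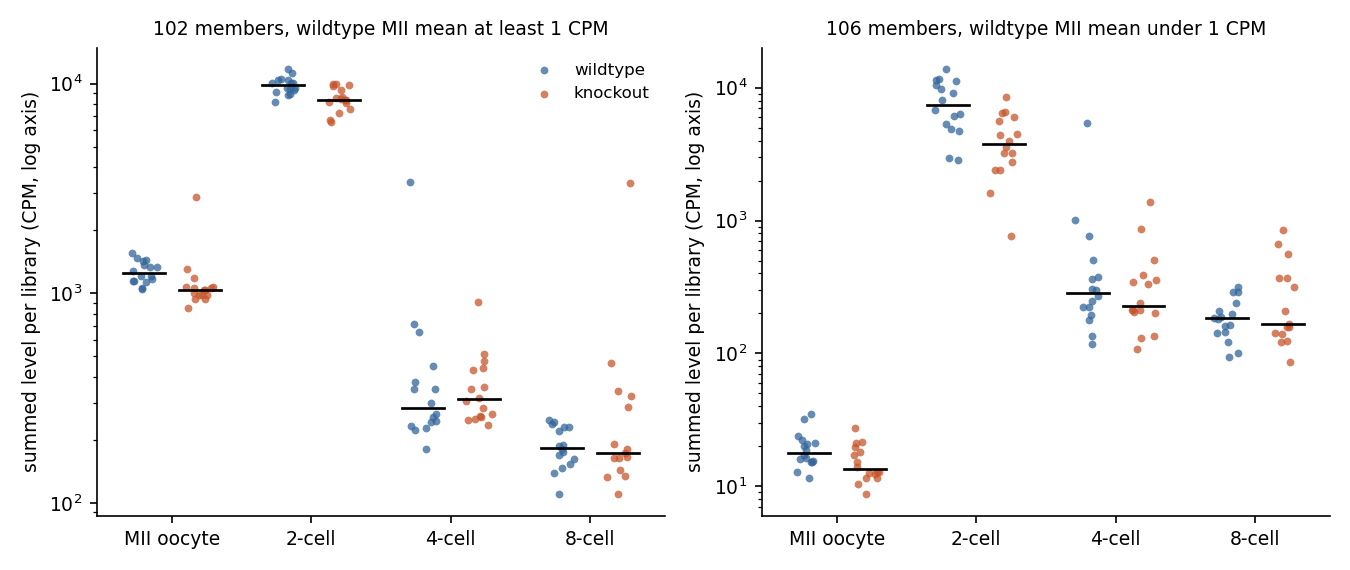
Summed level of the members in each library (CPM, log axis) by stage, split by the wildtype MII mean (at least 1 CPM, 102 members, left; under 1 CPM, 106 members, right); points are libraries, blue wildtype and orange knockout, and bars are medians. At 2-cell the medians were 9810 and 8378 CPM on the left and 7450 and 3771 CPM on the right, and the single high points at MII, 4-cell and 8-cell on the left are the libraries that stood apart.

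At the 2-cell stage the members were more often lower than higher in embryos from Kdm4a knockout oocytes. Of 208 members, 207 passed the filter on low counts; 74 were lower and 6 higher (edgeR quasi-likelihood test, adjusted p under 0.05), where 9.91% of 8708 genes were lower and 7.44% higher. The wildtype 2-cell libraries both chose the members and entered this test. The median log2 fold change was -0.57 over the members and 0.00 over all genes tested, and it was negative in 166 of 207. Members of 1 family may share reads, so these may stand for fewer than 207 independent measurements. Of the 275 symbol-named genes that met the same numeric rule, 273 were tested, 43 were lower and 20 higher, with a median of -0.14. No member had knockout and wildtype ranges without overlap at any stage. Of genes with a mean of at least 10 CPM, the share wholly below wildtype was 0.283% at MII, 0.177% at 2-cell, 0.0606% at 4-cell and 0.0% at 8-cell, and wholly above 0.0%, 0.0%, 0.0606% and 0.0%.

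Most log2 fold changes at 2-cell were negative in both subsets of the libraries, while the number of calls differed. The wildtype libraries of both subsets had chosen the members, which favours negative values, so the subset results are a description. With replicates 1 to 8 only, 46 members were lower (775 genes in all), and with replicates 9 to 16 only 14 (101 genes in all). The log2 fold change was negative in 144 of 205 and in 173 of 206 tested members, with a median of -0.57 in both. With members chosen in odd-numbered wildtype libraries and tested in even-numbered ones, 60 of 181 were lower, where 939 of 9342 genes were. With odd and even exchanged, 19 of 224 were lower, where 151 of 9467 genes were. The same knockout libraries entered both of these tests, so the 2 are not independent.

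**Figure D2:**
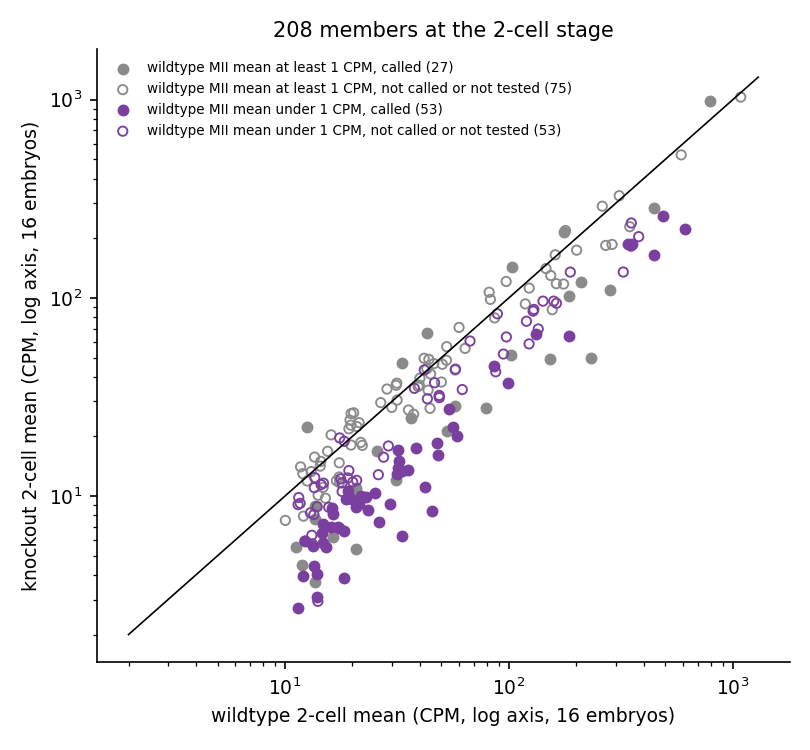
Mean 2-cell level of each member in wildtype (x) and knockout (y) embryos, in CPM on log axes, n = 16 each; the line marks equal levels, purple members had a wildtype MII mean under 1 CPM, and filled points passed the test. The purple points lie mostly under the line, 53 of them called lower and none higher, where 9.91% and 7.44% of all genes tested were.

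Most of the members lower in knockout were near 0 in wildtype oocytes. This split at 1 CPM was made after the values were seen. Of the 106 members with a wildtype MII mean under 1 CPM, 53 were lower, none higher and 1 was not tested, with a median log2 fold change of -0.92. Of the 102 members with at least 1 CPM in oocytes, 21 were lower and 6 higher, with a median of -0.09. Among all 8708 genes tested, 9.91% were lower and 7.44% higher, and nothing is read from the 6 higher. The wildtype 2-cell libraries that chose the members also entered this test. The summed level of the first set was 2866, 7450 and 13823 CPM (lowest, median, highest) in wildtype and 770, 3771 and 8501 CPM in knockout 2-cell embryos. The sum of the second was 8136, 9810 and 11748 CPM in wildtype and 6564, 8378 and 10015 CPM in knockout. In both sets the ranges overlapped.

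The sum of a list of other genes was also lower in knockout. A list of genes known from the 2-cell stage (23 of 25 measured, Zscan4, Tdpoz, Usp17l, Tcstv and others) summed to 1766, 3976 and 7386 CPM in wildtype and 1060, 1945 and 4496 CPM in knockout 2-cell embryos. The list holds relatives of the Zscan4-, Tdpoz- and Tcstv-related members. Reads may be divided between them, so the list and the members are not independent. The wildtype embryo highest in the list (replicate 10) was also the highest in the 106 members, and the one lowest in the list (replicate 11) the lowest. In knockout the lowest embryo was the same by both sums (replicate 3), but the highest was replicate 6 in the list (4496 CPM) and replicate 16 in the members (8501 CPM). The list as a whole was not transient: its wildtype median was 5668 CPM at 4-cell and 5481 CPM at 8-cell, above that at 2-cell. Oocyte markers summed to 4804, 6030 and 8318 CPM in wildtype and 5237, 6074 and 7680 CPM in knockout, nearly the same ranges. The part that embryo progress within the 2-cell stage plays in the result was not tested.

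The Eif1a-related copies lay at chr12:87514316-88324026 and were all near 0 in MII oocytes, with means of at most 0.85 CPM in wildtype and 0.92 CPM in knockout. At 2-cell 9 of 15 were lower, none was higher and all 15 log2 fold changes were negative (median -0.96). Their median share of whole values was 5.2%, so they may stand for fewer than 15 independent measurements. Summed over the family, wildtype 2-cell embryos had 1154, 3217 and 5889 CPM and knockout embryos 203, 1518 and 3716 CPM. The wildtype median was above all but 1 knockout embryo. The family made up 20.09% of the members' summed wildtype 2-cell mean.

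Gm5662 (RP24-441F13.1, chr12:88270640-88274500) had the highest Eif1a-related level, at 185, 496 and 1197 CPM in wildtype and 20.5, 173 and 527 CPM in knockout 2-cell embryos. Of 16 knockout embryos, 15 were below the wildtype median, although the ranges overlapped. Its log2 fold change was -1.43 (SE 0.32, edgeR adjusted p = 0.0027). Gm5039 (RP24-441F13.12), Gm2016 and BB287469, also among the 10 members with the highest wildtype 2-cell mean, had log2 fold changes of -0.90, -1.40 and -0.89 (edgeR adjusted p = 0.020, 0.0085 and 0.023). Gm8300 (RP23-465O13.2), which ranked between Gm2016 and BB287469 at 380 ± 206 (SD) CPM in wildtype and 204 ± 124 CPM in knockout, did not pass (log2 fold change -0.86, edgeR adjusted p = 0.060).

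Tcstv genes are short open reading frames of the 2-cell stage, and 6 of the 7 related members lay on chromosome 13. At 2-cell 5 of 7 were lower and none higher. Gm21818 (RP24-446P12.3, chr13:120172433-120173888) had 211, 396 and 792 CPM in wildtype and 142, 251 and 589 CPM in knockout embryos. Its log2 fold change was -0.59 (SE 0.20, edgeR adjusted p = 0.040), and 13 of 16 knockout embryos were below the wildtype median. AF067061 (RP24-218K1.1), whose upstream sequence is printed above, had means of 283 and 109 CPM (log2 fold change -1.34, edgeR adjusted p = 0.0017), and was named after its values were seen.

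All 3 Tdpoz-related members on chromosome 3 were lower. Gm5286 (RP23-232B20.2, chr3:94196714-94199802) had 51.7, 140 and 380 CPM in wildtype and 12.2, 39.6 and 112 CPM in knockout 2-cell embryos. Every knockout embryo was below the wildtype median, and the log2 fold change was -1.59 (SE 0.29, edgeR adjusted p = 0.00026). Gm9125 (RP23-199D18.1), named after its values were seen, fell from a mean of 45.4 to 8.41 CPM, a log2 fold change of -2.41 (edgeR adjusted p = 0.010). All 4 Cdc5l-related copies on chromosome 10 were lower too, with log2 fold changes of -1.05 to -1.26. Their values are nearly all fractional, so they may stand for fewer than 4 independent measurements.

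All 10 members of dispersed family B were lower (log2 fold changes -1.58 to -0.79), and 8 of them hold the 5′ stretch shown above. Over all 25 members with that stretch, 19 were lower and none higher at 2-cell, with a median of -1.02. Their summed level was 423, 1244 and 2438 CPM in wildtype and 172, 662 and 1327 CPM in knockout embryos. Gm45659 (RP23-231A8.1) was lower (log2 fold change -1.26, edgeR adjusted p = 0.0024), and Gm48578 (RP24-100L8.1), with the same stretch, had 88.9 and 83.1 CPM and a log2 fold change of -0.05. The stretch thus stood both in members that were lower and in members that did not pass.

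Other families had negative but mostly uncalled differences. The 11 chromosome 7 array members all had negative values (-0.75 to -0.42) and none passed. As their median share of whole values was 2.5%, they may stand for fewer than 11 independent measurements. In MII oocytes, where they were too low to be tested, the array summed to 3.27, 10.5 and 20.99 CPM in wildtype and 0.722, 2.18 and 8.53 CPM in knockout. The Speer4-related family had 1 of 7 lower, and the D5Ertd577e-related, Zscan4-related and Eif4a3-related families had 0 of 5, 0 of 2 and 0 of 2. The 2 Zscan4-related members had log2 fold changes of -0.91 and -1.25. Their summed level ranged from 148 to 1420 CPM in wildtype and from 7.97 to 1611 CPM in knockout embryos.

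**Figure D3:**
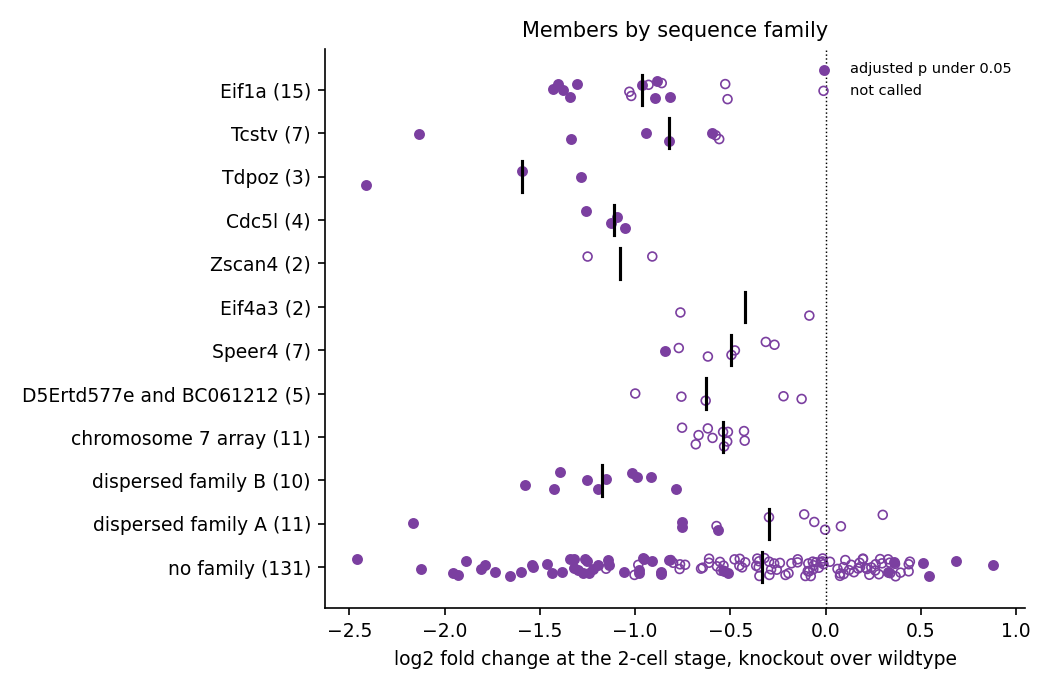
Log2 fold change of each tested member at 2-cell (knockout over wildtype, x) by sequence family (y, number of members in brackets); filled points passed the test, bars are medians and the dotted line marks 0. All families but dispersed family A (9 of 11 negative) lie wholly to the left of 0, while members without a family spread from -2.46 to 0.88.

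The 6 members with the smallest p among those lower at 2-cell were in part transcripts with no known role. Gm37724 (RP23-75G11.4, chr1:33065130-33066350) had 6.32, 12.7 and 27.6 CPM in wildtype and 1.36, 3.41 and 8.83 CPM in knockout embryos. Its log2 fold change was -1.79 (SE 0.25, edgeR adjusted p = 3.2e-06), and every knockout embryo was below the wildtype median. Gm48273 (RP23-309H21.1), an unclassified transcript on chromosome 10, had 8.98, 18.3 and 53.5 CPM in wildtype and 1.10, 3.57 and 12.1 CPM in knockout (log2 fold change -1.89, SE 0.28, edgeR adjusted p = 1.5e-05).

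Gm36976 (RP24-149G20.1, chr3:43547173-43548282), of dispersed family A, had 59.8, 232 and 507 CPM in wildtype and 7.02, 32.5 and 170 CPM in knockout 2-cell embryos. The log2 fold change was -2.17 (SE 0.37, edgeR adjusted p = 0.00018), and all 16 knockout embryos were below the wildtype median. 3830408C21Rik had 2.42, 11.01 and 28.3 CPM against 0, 2.87 and 6.57 CPM, and Gm48399 (RP24-246F8.6) had 4.04, 29.9 and 110 CPM against 0.624, 8.64 and 23.7 CPM. Their log2 fold changes were -1.95 and -1.93 (edgeR adjusted p = 0.00022 and 0.00039). Gm5286 completes the 6. Each of these had 16 of 16 knockout embryos below the wildtype median.

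The members higher in knockout at 2-cell were 6 of 207 tested, where 7.44% of 8708 genes were higher, and nothing is read from this count. All 6 had at least 1 CPM in wildtype oocytes. A730082K24Rik (RP23-370I17.3, chr7:114948650-114983960), a long noncoding RNA, had 503, 817 and 938 CPM in wildtype and 496, 978 and 1368 CPM in knockout 2-cell embryos. Of the knockout embryos 13 of 16 were above the wildtype median (log2 fold change 0.36, SE 0.11, edgeR adjusted p = 0.020). AY512915 (RP24-222N4.1) had 139, 168 and 239 CPM in wildtype and 160, 203 and 287 CPM in knockout, with 15 of 16 above (log2 fold change 0.33, edgeR adjusted p = 0.015). Gm29483 (RP23-145J9.10) and Gm2479 (RP23-214I6.3), which is antisense to the calcium channel gene Orai1, had log2 fold changes of 0.54 and 0.51 (edgeR adjusted p = 0.014 and 0.012). Of the 6, 3 lay opposite a coding gene. As strand use in counting was not stated, their levels cannot be told apart from the partner gene's.

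The members with the highest level did not all differ. C87436 (RP23-281H4.3, chr6:86438374-86470388) had 841, 1112 and 1327 CPM in wildtype and 772, 1024 and 1301 CPM in knockout 2-cell embryos (log2 fold change -0.03, SE 0.09, edgeR adjusted p = 0.87). Gm38025 (RP24-114A9.1), of dispersed family A, had 436, 552 and 1126 CPM against 316, 485 and 852 CPM (log2 fold change -0.11, edgeR adjusted p = 0.58). Gm4513 (RP23-342N5.5), of the chromosome 7 array, had 74.4, 304 and 879 CPM against 46.7, 237 and 493 CPM (log2 fold change -0.52, edgeR adjusted p = 0.26).

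**Figure D4:**
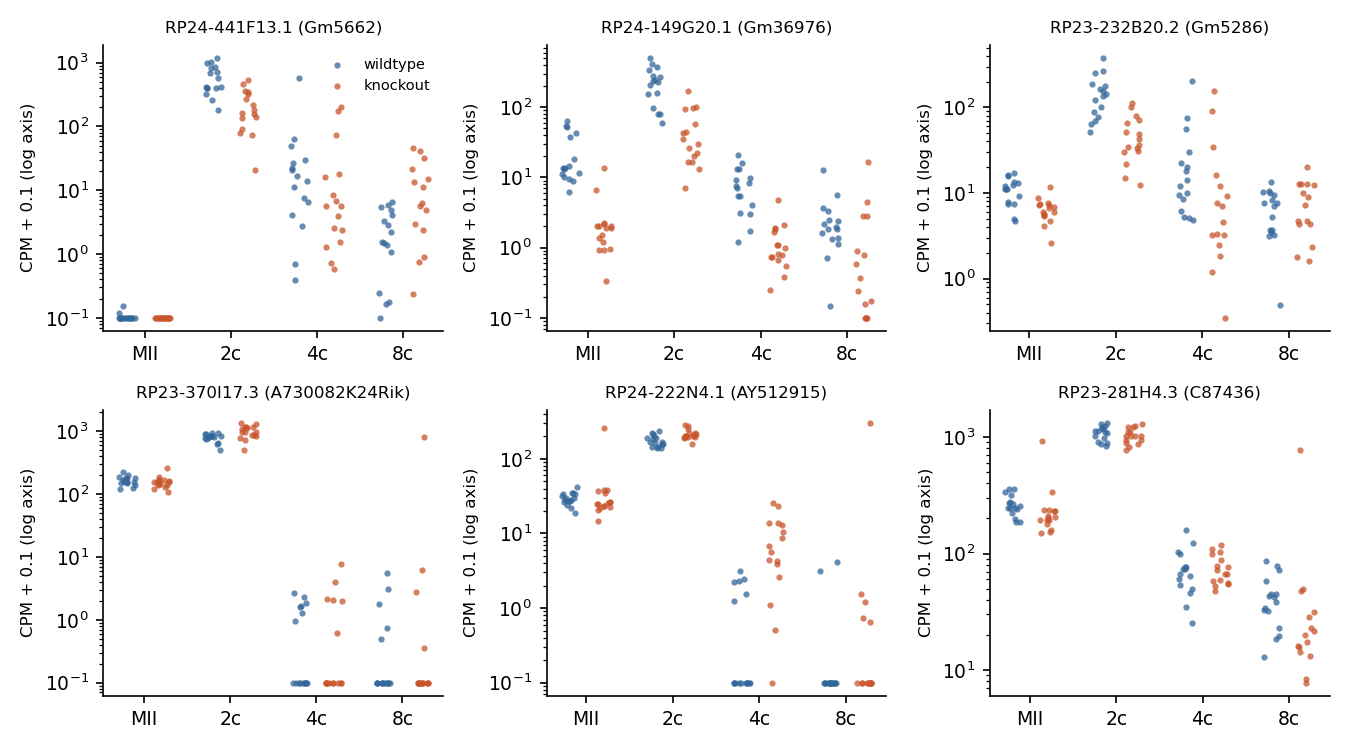
Level of 6 members in every library (CPM + 0.1, log axis) by stage, blue wildtype and orange knockout, 1 point per library. Gm5662, Gm36976 and Gm5286 (top) are lower in knockout at 2-cell, A730082K24Rik and AY512915 (bottom left and middle) slightly higher, and C87436 (bottom right) overlaps throughout.

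In MII oocytes, before any embryonic transcription, 60 of the 208 members could be tested; 10 were lower and 3 higher in knockout, where 6.67% of 7660 genes were lower and 5.25% higher. The wildtype MII libraries also took part in choosing the members. The median log2 fold change was -0.04, and -0.22 without knockout replicate 15. Oocyte markers had a higher median in knockout oocytes (15123 against 11665 CPM), and their part in these differences was not tested. Gm36976 (RP24-149G20.1) had 6.07, 13.5 and 64.5 CPM in wildtype and 0.234, 1.80 and 13.6 CPM in knockout oocytes (log2 fold change -3.14, SE 0.43, edgeR adjusted p = 4.2e-06). The highest knockout value was that of replicate 15. Gm38025 (RP24-114A9.1) had 28.9, 44.7 and 64.4 CPM against 18.6, 26.9 and 33.1 CPM, with all 16 knockout oocytes below the wildtype median (log2 fold change -0.68, SE 0.12, edgeR adjusted p = 0.00022). Gm45659 (RP23-231A8.1), Gm38383 (RP23-264D16.7), Gm43694 (RP23-149A1.2) and Gm47918 (RP24-375M13.2) were lower by log2 fold changes of -2.18, -1.45, -1.23 and -1.03, each with 16 of 16 below. Of the 10 members lower in oocytes, 6 were also lower at 2-cell, where 74 of 207 tested members were. The same overlap was not counted over all genes, so nothing is read from it.

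The 3 members higher in knockout oocytes were Gm35853 (RP24-366J14.7), which is antisense to the keratin gene Krt80, Gm29483 (RP23-145J9.10) and Gm43303 (RP23-194K16.1). As strand use in counting was not stated, the level of Gm35853 cannot be told apart from that of Krt80. Gm35853 had 0.329, 2.89 and 5.28 CPM in wildtype and 2.09, 5.97 and 9.97 CPM in knockout oocytes (log2 fold change 0.89, edgeR adjusted p = 0.0084). It was higher at 2-cell as well (0.88, edgeR adjusted p = 0.031), as was Gm29483 (0.68 in oocytes, edgeR adjusted p = 0.014). Gm43303 had a log2 fold change of 1.04 (edgeR adjusted p = 0.034), and its highest value of 57.2 CPM was that of replicate 15, where the wildtype median was 5.81 CPM.

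At 4-cell only 21 members passed the filter on low counts, 3 were lower in knockout and none was higher, where 7.34% of 7464 genes were lower and 9.11% higher. The count of members that passed rests on the group in which they were high, and the wildtype 4-cell libraries also chose the members. All 3 belong to the chromosome 7 array, Gm4513 (RP23-342N5.5, chr7:20593051-20599021), Gm5890 (RP23-342N5.2, chr7:20260451-20262834) and Gm6902 (RP23-145O23.1, chr7:23272801-23278900). Gm4513 had 0, 11 and 889 CPM in wildtype and 0, 8.78 and 51.5 CPM in knockout 4-cell embryos (log2 fold change -2.55, SE 0.84, edgeR adjusted p = 0.033). The log2 fold changes of Gm5890 and Gm6902 were -2.47 and -2.59 (edgeR adjusted p = 0.0074 and 0.0095). The highest wildtype value of each was that of replicate 11, and without that library 1 member was lower and 1 higher. With it left out the median of the tested members was 0.09, against -0.28 with it.

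The chromosome 7 array also varied widely between embryos after the 2-cell stage. Its 11 members summed to 11.5, 93.2 and 3849 CPM in wildtype 4-cell embryos, with a second value of 875 CPM (replicate 12), and to 4.82, 24.7 and 229 CPM in knockout. At 8-cell the sums were 8.63, 45.7 and 115 CPM in wildtype and 5.41, 70.5 and 838 CPM in knockout, with a second knockout value of 413 CPM. The ranges overlapped at both stages. The Eif1a-related family had 64.2 and 46.5 CPM as wildtype and knockout medians at 4-cell, and 19.1 and 32.2 CPM at 8-cell.

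**Figure D5:**
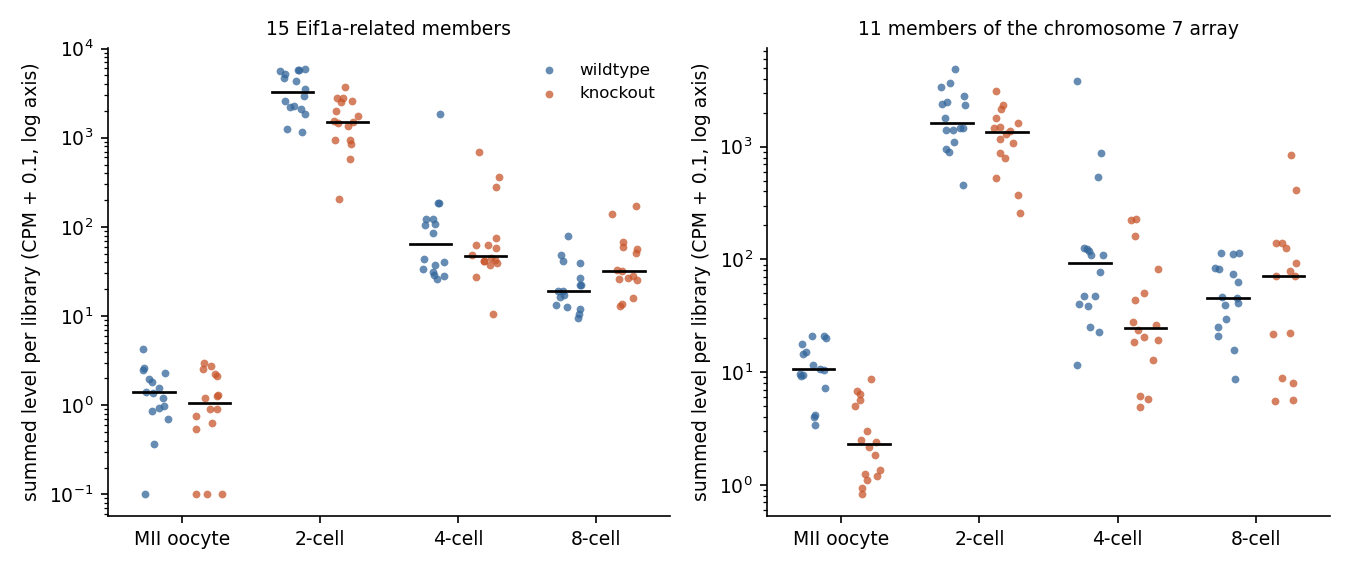
Summed level per library (CPM + 0.1, log axis) of the Eif1a-related members (left) and the chromosome 7 array (right) by stage, blue wildtype and orange knockout, with bars at the medians. The wildtype 4-cell point far above the others is replicate 11, at 1855 CPM on the left and 3849 CPM on the right.

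At 8-cell, which the rule did not use, members were near the lower limit of detection in both genotypes. Of 208 members, 19 were tested; 1 was lower and 1 higher, where 3.0% of 7208 genes were lower and 8.45% higher. Gm33248 (RP23-68N11.2), a sense intronic RNA that holds the 5′ stretch, had 0, 7.33 and 54.5 CPM in wildtype and 0, 2.28 and 8.13 CPM in knockout (log2 fold change -1.94, SE 0.57, edgeR adjusted p = 0.022). It was lower at 2-cell as well. BB557941 (RP23-271B15.2) was called higher (log2 fold change 2.70, SE 0.81, edgeR adjusted p = 0.027), with 0, 4.56 and 21 CPM in wildtype and 0.503, 4.61 and 234 CPM in knockout. The medians were nearly equal, and the highest value was that of replicate 7, the library with oocyte markers. A730082K24Rik (RP23-370I17.3) and AY512915 (RP24-222N4.1) were at 803 and 306 CPM in that library and at a median of 0 in both genotypes.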

How the data were processed

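Single oocytes and embryos were sequenced as 150-base paired reads, 128 libraries in all. The authors used Trimmomatic 0.32 for trimming, STAR 2.5.1a with the mm10 genome and featureCounts 1.5.1, according to the submitters' processing notes. They deposited estimated counts, which are not normalised and are in part fractional. The strand and multimapping settings are not given in the sources used here, and the labels name both a SMART-Seq v4 and a stranded kit.

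Estimated counts were rounded to whole numbers and tested with edgeR 4.0.16 (R 4.3.3; filterByExpr, TMM factors, robust quasi-likelihood test, Benjamini-Hochberg adjustment over all genes tested, threshold 0.05). For steps between stages a log2 change of 1 or more in either direction was also required, and interactions compared those steps between genotypes. The fits were first tested on simulated data. Levels are CPM of the column total, and levels per kb use GENCODE exonic length. The library with 404 counts was left out. Members, marker lists and families were chosen with earlier results of these data known. Members named are the 10 with the highest wildtype 2-cell mean, up to 6 lower and 4 higher at each stage by the smallest edgeR p, those next to each threshold, and those at the same locus. Members that shared at least 20 of their 31-base words with a gene that names a family were placed in that family. The rest were grouped where at least 30% of the words of the member with fewer words were common. Small groups of these were counted as no family. Alternatives used DESeq2 1.42.0, limma 3.58.1 (voom with quality weights), other factors, filters, subsets of libraries and rule settings. Replicate numbers are the same in both genotypes, but same-numbered libraries did not deviate together.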

Additional observations from a re-analysis of the deposited data

Results flagged for a closer look

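Some members passed the edgeR interaction test of stage by genotype, with Benjamini-Hochberg adjustment. The wildtype changes from MII to 2-cell and from 2-cell to 4-cell chose the members, so interactions over these steps draw on values of the rule and are a description. They were not run with members chosen in separate libraries. From MII to 2-cell, 1 member had a larger log2 change in knockout (background 1.87%) and 3 a smaller one (2.2%). RP23-361B11.2 (9530059O14Rik) had means of 0.04 and 0.485 CPM in wildtype and knockout oocytes and 48.9 and 32.2 CPM at 2-cell, an interaction of -3.28 (SE 0.67, edgeR adjusted p = 0.0023). RP23-311O16.2 (Gm15762) had 4.53 and 0.702 CPM in oocytes and 49.9 and 37.6 CPM at 2-cell, an interaction of 2.23 (SE 0.47, edgeR adjusted p = 0.0032). For both, the genotypes were further apart in oocytes than at 2-cell on the log scale. Oocyte means under 1 CPM rest on few reads, so the size of these gaps is uncertain.

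From 2-cell to 4-cell the interaction was positive for 29 members (background 11.5%) and negative for 4 (4.13%). RP24-222N4.1 (AY512915) had medians of 0 CPM in wildtype and 6.12 CPM in knockout 4-cell embryos, an interaction of 2.95 (SE 0.51, edgeR adjusted p = 5.3e-05). Oocyte markers at 4-cell had medians of 70.9 CPM in wildtype and 145 CPM in knockout, and their part was not tested. RP23-133M13.2 (Gm6509) had an interaction of 4.67 (SE 0.85, edgeR adjusted p = 9.7e-05).

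From 4-cell to 8-cell, the interaction was positive for 5 of 40 tested members (background 1.68%), and all 5 belong to the chromosome 7 array. Which members were tested rests on the group in which they were high, so this count is a description. All 5 fell in wildtype (log2 changes -3.57 to -2.74) and none passed in knockout (1.09 to 1.89). RP24-505M10.4 (Gm6176) and RP23-82H2.2 (Gm4565) had interactions of 4.72 (SE 1.16) and 4.58 (SE 1.13), each with an edgeR adjusted p of 0.015. None of the 5 passed without the libraries that stood apart, among them wildtype 4-cell replicate 11.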

How the results depend on the processing

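The rise of the members from MII to 2-cell and their fall from 2-cell to 4-cell in knockout libraries stayed within 1.5 times of 205 and 203 under all 7 alternatives run. Of the genotype counts, 74 lower at 2-cell became 87 with DESeq2 and 86 with limma, and 74 and 70 of the same members were among these. It was 46 and 14 with replicates 1 to 8 and 9 to 16, 31 with all 8 groups in one fit, and 19 with members chosen in even and tested in odd wildtype libraries. The even-chosen set had 224 members, while the replicate subsets and the fit of all 8 groups used the 208. Other rule settings also changed the number of members. The count of lower members was 47 of 135 with a 2-cell minimum of 20 CPM. It was 40 of 90 with a limit of 0.1 of the 2-cell mean, and 10 of 28 among members with mostly whole values. The limit of 0.5 gave 332 members. The 6 higher at 2-cell were 0 with replicates 9 to 16, with all 8 groups in one fit, with a log2 minimum of 1 in either direction and among whole-valued members. They were 1 with even-chosen members and with the limit of 0.1, and 12 with a limit of 0.5.

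The 10 lower at MII were 24 without a filter, 3 with a filter at 10 CPM, 1 with replicates 9 to 16, 17 with all 8 groups in one fit and 6 with even-chosen members. They were 21 and 2 with limits of 0.5 and 0.1, and 0 among whole-valued members. The 3 higher at MII were 0 with the filter at 10 CPM, either subset of replicates (1 to 8, 9 to 16), all 8 groups, either odd or even choice, and whole-valued members. They were 1 with a log2 minimum of 1 or the limit of 0.1, and 11 with the limit of 0.5.

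The 3 lower at 4-cell were 1 with DESeq2, limma, replicates 9 to 16, odd-chosen members or without wildtype replicate 11. They were 0 with the filter at 10 CPM, replicates 1 to 8, the limit of 0.1 or whole values, and 10, 32, 11 and 5 with no filter, all 8 groups, even-chosen members and the limit of 0.5. The 0 higher at 4-cell were 1 with DESeq2, without wildtype replicate 11 and with either odd or even choice, and 10, 19 and 4 with no filter, all 8 groups and the limit of 0.5. The 1 lower at 8-cell was 2 with DESeq2, the limit of 0.5 or without knockout replicate 7, and 6 and 10 with no filter and all 8 groups. The 1 higher was 44, 62 and 9 with no filter, all 8 groups and the limit of 0.5, and 0 with limma. Both were 0 with the filter at 10 CPM, either replicate subset, either odd or even choice, the limit of 0.1 and whole values, and the 1 lower also with 20 CPM.

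Of the interactions, the 4 from MII to 2-cell were 15 with limma, 0 with replicates 9 to 16 and 9 without the libraries that stood apart. The 33 from 2-cell to 4-cell were 10 and 6 in the replicate subsets (1 to 8, 9 to 16) and 54 without those libraries. The 5 from 4-cell to 8-cell were 1 with limma, 9 with DESeq2 size factors, 2 with the filter at 10 CPM, and 0 in either subset or without those libraries. The 8 knockout changes from 4-cell to 8-cell were 15 with limma, 3 with the filter and 2 with replicates 1 to 8.

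With the replicate number as a block, 69 members were lower at 2-cell, 1 was higher at MII, 0 were lower and 0 higher at 8-cell, and 0 interactions passed from 4-cell to 8-cell. In 2, 0, 0 and 1 pairs at MII, 2-cell, 4-cell and 8-cell did a library correlate best with its own number, so the numbers do not pair the libraries.

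Directions turned in 3 cases. RP23-281H4.3 at MII, 0.03 with all libraries, was -0.32 with DESeq2, -0.31 with limma and -0.33 without knockout replicate 15. At 8-cell, 1.52 became -0.95, -1.06 and -0.95 (without knockout replicate 7). RP23-271B15.2 at 4-cell, -0.36, was 1.08 with DESeq2 and 1.09 without wildtype replicate 11. RP23-271B15.2 at 8-cell was 2.70 with all libraries and 0.55 without knockout replicate 7, and did not pass there. Leaving out replicates one by one was not run because each group had 15 or 16 libraries. The causes were not tested.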
